A study of Mus musculus with 8 samples.

Results

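Ribosome-bound RNA of mouse Otp-lineage cells was read for 8 genes of the calcitonin and CGRP signalling family: the receptor genes Calcr and Calcrl, the receptor activity-modifying protein (RAMP) genes Ramp1, Ramp2 and Ramp3, and the ligand genes Calca, Calcb and Adm. The set was picked by gene symbol, and it was chosen by a proposal made with KO against Control values of these same libraries in view. Differences between KO and Control in these 8 genes are therefore given as a description, with no test of them. All 8 had a row among the 24421 gene rows, and 7 of the 8 were among the 15438 genes tested. Calcb was left out of the fit for low counts in both groups.

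The series holds 4 libraries labelled KO and 4 labelled Control, from C57BL/6 mice. KO mice had the genotype Otp-Cre; Cicflox/flox; ROSAfsTRAP, and Control mice had Otp-Cre; ROSAfsTRAP, so that both groups carried the Cre driver and the TRAP allele, and only KO mice carried floxed Cic. Cic encodes Capicua, a DNA-binding repressor, and the comparison asks how its loss in Otp-lineage cells changes the RNA on their ribosomes. The tissue was hypothalamus and medial amygdala. Cells outside the Otp lineage keep Cic in KO mice, and TRAP (translating ribosome affinity purification) can carry some of their RNA along. The labels used here state neither age nor sex, nor how many mice a library stands for. The p-values therefore measure only how these libraries vary, which may be technical.

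The receptors of this family are class B G protein-coupled receptors that mainly raise cyclic AMP through Gs. The calcitonin receptor, the product of Calcr, binds calcitonin by itself, and with a RAMP it forms amylin receptors. The product of Calcrl needs a RAMP to reach the cell surface. With RAMP1 it forms the CGRP receptor, and with RAMP2 or RAMP3 it forms adrenomedullin receptors. In the brain, Calcr is known for its part in feeding and in parental behaviour, whereas Calcrl, Ramp2 and Adm are also well known from blood vessels.

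The 4 KO libraries held 33223878 to 49587839 gene counts and the 4 Control libraries 38171319 to 57300362. Cic was lower in every KO library (34.5 to 59.3 CPM, counts scaled to library size with TMM) than in any Control library (72.4 to 103 CPM), which checks the labels (edgeR log2 fold change -1.10, adjusted p = 0.00220). The lineage markers Otp (2.28 to 8.55 CPM) and Sim1 (11.2 to 31.6 CPM) had counts in every library. KO replicate 4 lay apart on the first principal component of log2 CPM, at 60.0 against -38.5 to 9.28 for the other 7 libraries. It also had the fewest gene counts, 33223878. Counts of alignments that were not unique made up 81.9% of its total, counter rows included, against 63.3% to 75.5% in the others. Control replicates 1 and 4 had the highest summed microglia markers, 51.1 and 51.0 CPM against 12.2 to 29.2 CPM in the other 6. They also had the highest summed oligodendrocyte markers, 2783 and 2696 CPM against 1404 to 2588 CPM. Control replicate 1 was highest for endothelial, mural and astrocyte markers too, and Control replicate 4 for choroid plexus markers. Summed marker levels of each cell type overlapped between the groups. For KO and then Control, endothelial markers summed to 12.2 to 22.8 and 15.1 to 35.2 CPM, mural markers to 15.7 to 37.6 and 14.7 to 49.7 CPM, astrocyte markers to 692 to 1052 and 761 to 1167 CPM, and choroid plexus markers to 36.6 to 191 and 14.2 to 543 CPM. Neuron markers summed to 10988 to 15145 and 10781 to 12953 CPM, and Otp-lineage markers to 217 to 355 and 212 to 285 CPM. All 5 lineage markers had a positive fold change, as both receptor genes did, with a median of 0.44. None of the 5 was called and 2 passed an unadjusted p of 0.05, Sim1 (0.65, edgeR adjusted p = 0.228) and Nhlh2 (0.44, adjusted p = 0.296), the latter named after its values were seen. Oligodendrocyte markers summed to 1404 to 2588 and 2140 to 2783 CPM, with all 8 at a negative fold change and 1 of them, the myelin claudin gene Cldn11, called lower in KO (-0.81, edgeR adjusted p = 0.0375). At an unadjusted p of 0.05, 4 of the 8 passed (edgeR), against 10.6% of all genes. Cldn11, Mag and Opalin were lower in KO with no overlap, as were 2.91% of all genes. Mag and Opalin were named after their values were seen. The part of these cells in the family's differences was not tested, and in bulk samples fewer cells of a type cannot be told apart from less RNA per cell.

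Both receptor genes had higher mean levels in KO and all 3 RAMP genes had lower ones, while the ligand genes Calca and Adm had similar means in the 2 groups. For Adm this rested on KO replicate 4, and without that library its log2 fold change was -1.26. The log2 fold changes, KO over Control from the edgeR fit across all genes, were 0.71 for Calcr, 0.63 for Calcrl, -0.41 for Ramp1, -0.65 for Ramp2 and -1.11 for Ramp3. None of the 7 fitted genes was called at an edgeR adjusted p of 0.05, against 0.259% of all genes tested. At an unadjusted p of 0.05, 4 of the 7 passed, against 10.6% of all genes, and DESeq2 called 1, Calcr, against 1.53%. Calcr was the 1 gene with every KO library above every Control library, as were 3.01% of all genes, and Ramp3 the 1 with every KO library below, as were 2.91%. Fold changes were positive for 4 of the 7 and negative for 3, and their median was 0.08 beside 0.02 over all genes tested. Because the set was proposed on this contrast, nothing is read from these counts.

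**Figure D1:**
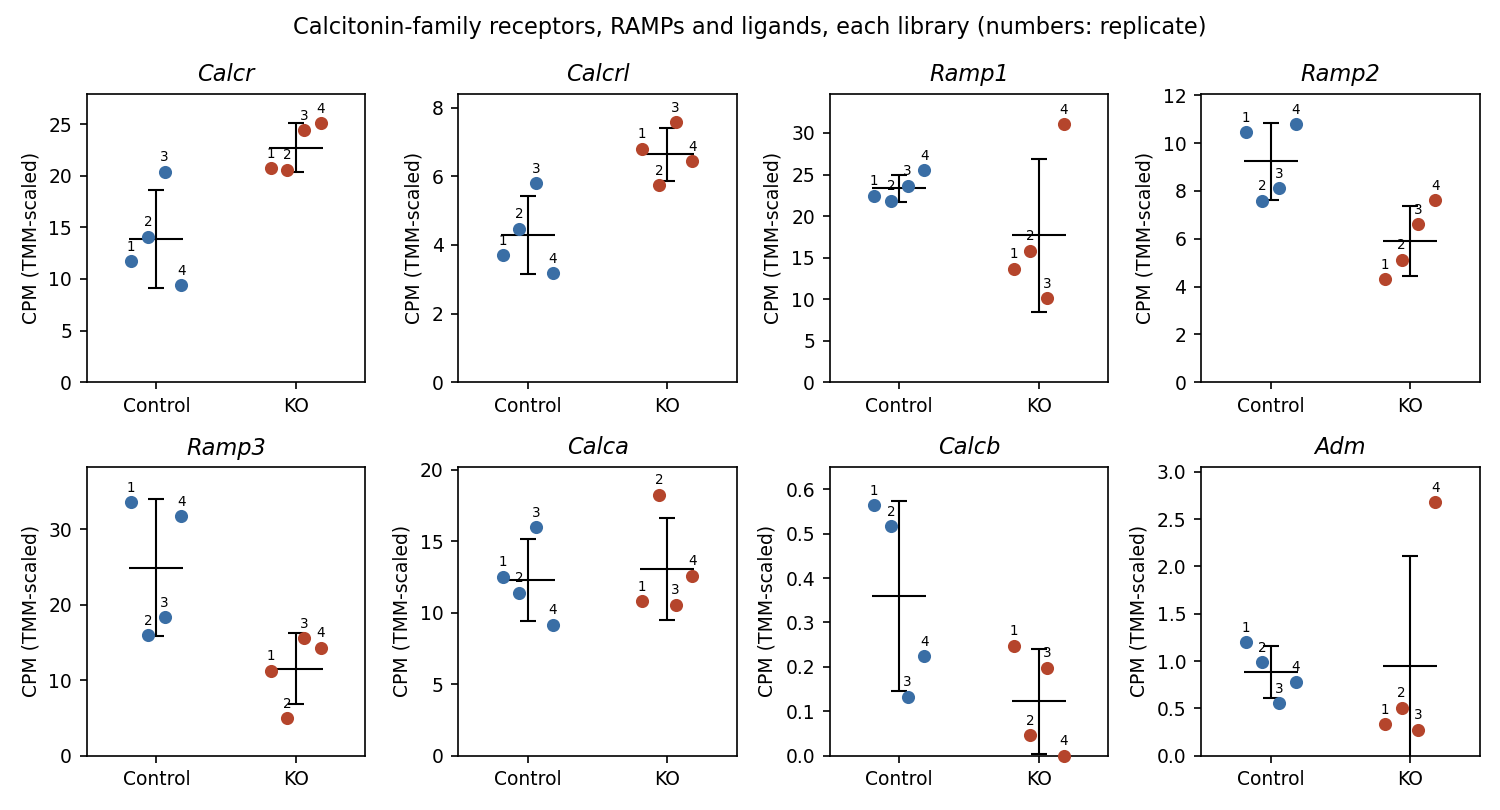
TMM-scaled CPM of the 8 family genes, one panel a gene, with each library as a point numbered by replicate and the group mean ± SD as bars (n = 4 a group; the lower bar of Adm in KO is clipped at 0). Calcr and Ramp3 have no overlap between the groups, Ramp1 and Adm have KO replicate 4 far above the other KO libraries, and Control replicates 1 and 4 are the lowest of all for Calcr and the highest for Ramp3.

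Promoter sequence is shown for Calcr and Calcrl, the receptors that were both higher in KO, and for Ramp3, which had the largest log2 fold change in size among the 7 fitted genes. The bases come from RefSeq promoters on GRCm38.p6, which held 6 of the 8 genes with 7 starts, each covering 250 bases before and 50 after a start. Only bases before the start and outside every GENCODE exon are printed, 5′ to 3′ on the gene's strand, with each TGACG or its reverse complement CGTCA, the half-site of the cyclic AMP response element, in capitals. Calcr lies on the minus strand, and the stretch at its first start is chr6:3763631-3763873 and that at its second start chr6:3764715-3764963. The stretch of Calcrl, also on the minus strand, is chr2:84425412-84425516, and that of Ramp3, on the plus strand, is chr11:6658283-6658520.
Calcr, first start: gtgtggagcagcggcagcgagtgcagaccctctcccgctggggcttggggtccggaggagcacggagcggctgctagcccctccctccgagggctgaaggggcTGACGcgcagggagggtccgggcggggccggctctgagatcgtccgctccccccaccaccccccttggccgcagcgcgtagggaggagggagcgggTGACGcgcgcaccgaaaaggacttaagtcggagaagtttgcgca
Calcr, second start: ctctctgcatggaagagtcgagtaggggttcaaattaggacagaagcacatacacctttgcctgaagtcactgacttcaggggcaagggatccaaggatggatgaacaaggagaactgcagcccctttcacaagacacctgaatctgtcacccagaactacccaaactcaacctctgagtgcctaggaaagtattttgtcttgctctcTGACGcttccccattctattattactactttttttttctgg
Calcrl: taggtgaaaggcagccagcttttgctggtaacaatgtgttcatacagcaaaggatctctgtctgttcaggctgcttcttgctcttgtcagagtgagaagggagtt
Ramp3: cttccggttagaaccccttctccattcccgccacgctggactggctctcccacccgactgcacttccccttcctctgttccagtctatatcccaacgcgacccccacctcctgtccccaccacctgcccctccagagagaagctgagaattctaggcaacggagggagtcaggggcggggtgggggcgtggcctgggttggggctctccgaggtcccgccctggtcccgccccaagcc

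The 2 starts of Calcr differ in base composition, with 71.2% G or C at the first and 46.2% at the second, beside a median of 52.4% for the 250 bases before all RefSeq starts. The printed stretch of Calcrl had 46.7% and that of Ramp3 66.0%. That of Calcrl is only 105 bases, from 250 to 146 bases before its start. The bases nearer the start are not printed, so its percentage and the median cover unlike stretches. On either strand, the octamers bound by Capicua (TGAATGAA, TCAATGAA, TGAATGGA and TCAATGGA) had 0 matches in the 7 full windows of 300 bases, and 3.84% of all RefSeq promoters held one. The full cyclic AMP response element TGACGTCA also had 0 matches and was in 1.79% of promoters. Its half-site TGACG, which any full element contains, was in 20.8% of promoters, and among the 7 windows it occurred 2 times at the first start of Calcr, and 1 time each at the second start of Calcr, at Ramp1 and at Calca. Letters missing from these windows say nothing of binding elsewhere, and no binding data were used here.

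Calcr, the calcitonin receptor gene (ENSMUSG00000023964.15), lies on chromosome 6 from 3685680 to 3764714 on GRCm38, with the microRNA genes Mir653 and Mir489 inside it on the same strand. It measured 20.8, 20.6, 24.4 and 25.1 CPM in KO replicates 1 to 4 and 11.7, 14.1, 20.4 and 9.40 CPM in Control replicates 1 to 4. The groups did not overlap, but the gap was narrow: Control replicate 3 at 20.4 CPM lay just under KO replicate 2 at 20.6 CPM. The KO libraries were close together and the Control libraries more spread. Their means were 22.7 ± 2.38 and 13.9 ± 4.73 CPM (SD, n = 4 each), 1.63 times as much in KO, and the log2 fold change was 0.71 with a standard error (SE) of 0.25. It was 0.40 with Control replicates 1 and 4 left out together, a pair chosen after the values were seen. These were the libraries with the most microglia and oligodendrocyte markers and the least Calcr. Dropping the Control libraries farthest from KO shrinks the difference by itself, so 0.40 says nothing of those cells. The part of those cells in the difference was not tested.

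Calcrl, the receptor gene for CGRP and adrenomedullin (ENSMUSG00000059588.13, chromosome 2 from 84330626 to 84425411), was less abundant and had a like pattern. Its levels were 6.80, 5.74, 7.57 and 6.44 CPM in KO and 3.70, 4.47, 5.80 and 3.18 CPM in Control, in order of replicate. Control replicate 3 was again the highest Control library and lay above KO replicate 2 by a small margin, and Control replicates 1 and 4 were again lowest. The means were 6.64 ± 0.762 and 4.29 ± 1.14 CPM (n = 4 each), a ratio of 1.55 (log2 fold change 0.63, SE 0.20). Endothelial cells are known to express Calcrl. Among their markers, fold changes were positive for 4 and negative for 7 of the 11 tested, and 0 were called (edgeR, 2 at an unadjusted p of 0.05), with Cldn5 at 0.0824 to 1.45 CPM and Pecam1 at 0.344 to 2.05 CPM over the 8 libraries. The 2 at an unadjusted p of 0.05, named after their values were seen, were Egfl7, at 6.88 to 9.46 CPM in KO libraries and 10.4 to 13.8 CPM in Control libraries, and Esam, at 0.370 to 1.01 and 1.15 to 1.93 CPM, both lower in KO without overlap. Of all genes tested, 2.91% were lower in KO without overlap, and 10.6% passed an unadjusted p of 0.05 (edgeR). The part of these markers in the Calcrl difference was not tested.

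The 2 receptor genes were compared for how they vary within groups. Their deviations from the group means of log2 CPM had a Pearson r of 0.931 over 8 libraries (exact within-group permutation p = 0.0191, two-sided) and a Spearman rho of 0.833 (exact permutation p = 0.0382). Over the 21 pairs of fitted family genes compared, neither passed after Benjamini-Hochberg adjustment (exact permutation, adjusted p = 0.401 for r and 0.761 for rho). Without Control replicates 3 and 4, the 2 libraries farthest from the Calcr median, r was 0.676. Calcrl ranked 8 among 12878 genes by its r with Calcr. The ratio of Calcr to Calcrl per kilobase of exon was 3.81 to 4.87 in KO and 3.69 to 4.39 in Control, which overlap.

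**Figure D2:**
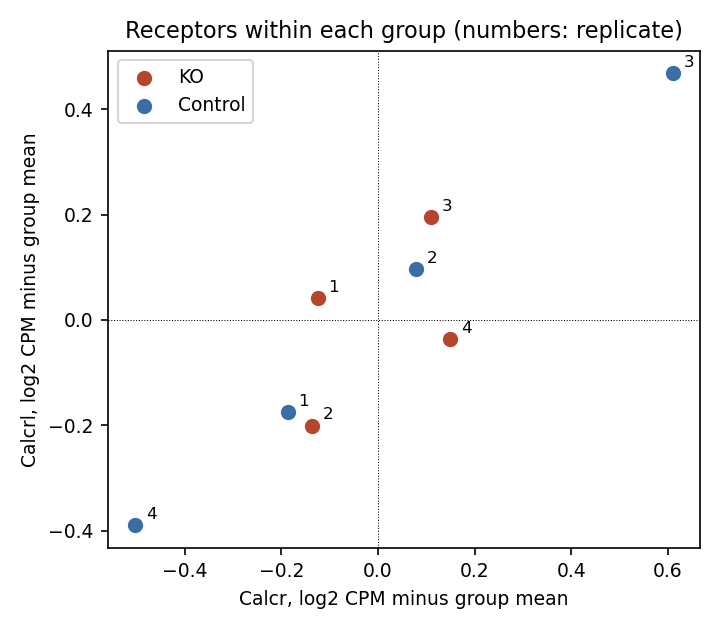
Calcrl against Calcr as log2 CPM minus the group mean, one point a library, numbered by replicate and coloured by group. Control replicate 3 at the upper right and Control replicate 4 at the lower left set most of the spread, and without them the Pearson r is 0.676 in place of 0.931.

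Ramp3, whose product pairs with either receptor, had the largest log2 fold change in size among the 7 fitted genes. The gene (ENSMUSG00000041046.7, chromosome 11 from 6658521 to 6677475) overlaps Gm11978 on the opposite strand, and the library preparation did not mark strand, so reads of the 2 cannot be told apart where they overlap. KO replicates 1 to 4 had 11.3, 4.98, 15.6 and 14.3 CPM, and Control replicates 1 to 4 had 33.6, 15.9, 18.4 and 31.8 CPM. No KO library reached a Control library, although KO replicate 3 at 15.6 CPM and Control replicate 2 at 15.9 CPM nearly met. KO averaged 11.5 ± 4.73 CPM and Control 24.9 ± 9.06 CPM (n = 4 each), which puts KO at 46.3% of Control, with a log2 fold change of -1.11 (SE 0.46). Control replicates 1 and 4 were well above Control replicates 2 and 3. They were also the pair with the most microglia and oligodendrocyte markers. Without this pair, chosen after the values were seen, the log2 fold change was -0.57. Leaving out the highest Control libraries shrinks the difference by itself. Among KO libraries the order differed: replicate 2 had the most microglia (29.2 CPM) and oligodendrocyte markers (2588 CPM) and the least Ramp3. KO replicate 3 had the fewest microglia markers (12.2 CPM) and the most Ramp3 of the KO libraries. Of 10 microglia markers, 9 had a negative fold change and 0 were called (edgeR). At an unadjusted p of 0.05, 1 of the 10 passed (edgeR), against 10.6% of all genes. The part of microglia and oligodendrocyte markers in the Ramp3 difference was not tested.

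Ramp2, the RAMP best known from blood vessels (ENSMUSG00000001240.13, chromosome 11 from 101246028 to 101259546), was the least abundant of the RAMP genes. An annotated Ramp2 transcript runs into the neighbouring gene Vps25 on the same strand, so reads there are uncertain. Its levels were 4.31, 5.12, 6.61 and 7.61 CPM in KO and 10.5, 7.60, 8.13 and 10.8 CPM in Control. KO replicate 4 at 7.61 CPM and Control replicate 2 at 7.60 CPM were all but level, and the other 3 KO libraries lay below every Control library. The means were 5.91 ± 1.48 and 9.24 ± 1.61 CPM (n = 4 each), with KO at 64.0% of Control (log2 fold change -0.65, SE 0.22). Like Ramp3, it was highest in Control replicates 1 and 4. Its log2 fold change was -0.41 without that pair, whose removal shrinks the difference by itself. Deviations of Ramp2 and Ramp3 from their group means had an r of 0.680 and a rho of 0.619 over 8 libraries (exact within-group permutation p = 0.108 and 0.162, adjusted p = 0.565 and 0.761 over 21 pairs).

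Ramp1, which makes the CGRP receptor with the product of Calcrl, lies on chromosome 1 from 91179822 to 91225196 (ENSMUSG00000034353.14). Control libraries were tight, at 22.4, 21.9, 23.6 and 25.5 CPM, whereas KO libraries had 13.7, 15.8, 10.1 and 31.1 CPM. KO replicates 1 to 3 lay below every Control library, and KO replicate 4 lay above every one. The means were 17.7 ± 9.23 and 23.4 ± 1.62 CPM (n = 4 each), and the difference of the means was smaller than the spread within KO (log2 fold change -0.41, SE 0.34). Without KO replicate 4, the library that lay apart on the first principal component, it was -0.83.

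**Figure D3:**
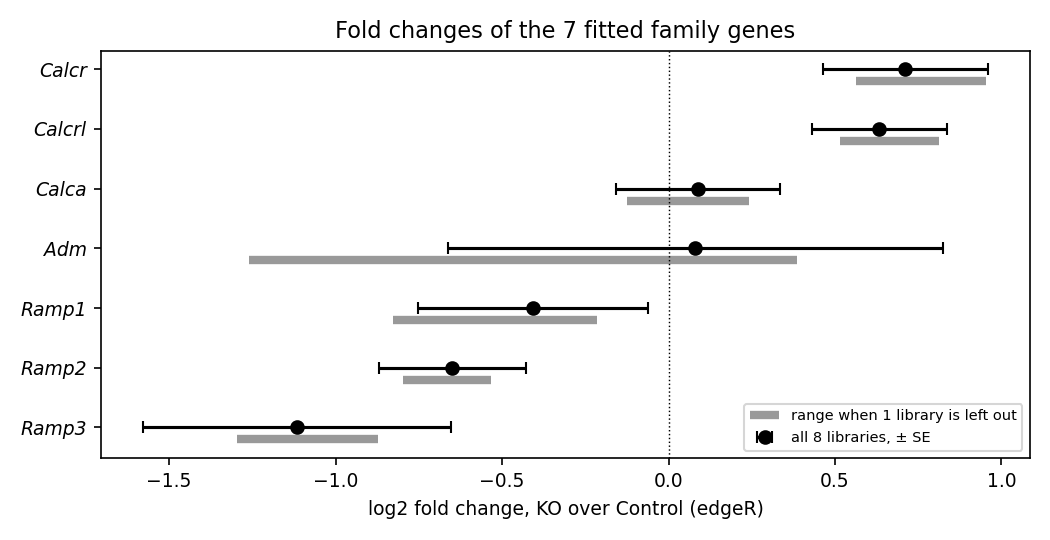
Log2 fold change of the 7 fitted family genes, KO over Control, with ± SE as error bars and, as grey bars, the range over 8 fits that each left out 1 library. Receptor genes stay above 0 and RAMP genes below 0 over those 8 fits, while Calca and Adm cross 0.

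Among the ligand genes, Calca was the only one at more than a trace. Calca (ENSMUSG00000030669.13, chromosome 7 from 114631478 to 114636357) yields calcitonin or the neuropeptide alpha-CGRP by alternative splicing, which gene counts cannot separate. It had 10.8, 18.2, 10.6 and 12.6 CPM in KO and 12.5, 11.4, 16.0 and 9.15 CPM in Control. KO replicate 2 was the highest of the 8 and Control replicate 4 the lowest, and the groups overlapped over most of their range. The means were 13.0 ± 3.57 and 12.3 ± 2.85 CPM (n = 4 each; log2 fold change 0.09, SE 0.25), a difference well within the spread.

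Calcb, which encodes beta-CGRP, lies 82.3 kb from Calca, on chromosome 7 from 114718643 to 114723365 (ENSMUSG00000030666.11). HTSeq by default leaves out reads with more than a single best alignment, and Calca and Calcb are related in sequence, so both counts are uncertain. Calcb had 12, 2, 8 and 0 counts in KO and 33, 22, 5 and 10 in Control. The count of 0 in KO replicate 4 allows up to 0.0924 CPM (3 counts; floors here cover counting error only), and the highest library, Control replicate 1, had 0.565 CPM. Levels this low did not resolve a difference at this depth.

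Adm, the adrenomedullin gene (ENSMUSG00000030790.15, chromosome 7 from 110627661 to 110629820, overlapping Gm28863 on the opposite strand), had 16, 22, 11 and 87 counts in KO and 70, 42, 21 and 35 in Control. As CPM these were 0.330, 0.505, 0.272 and 2.68 in KO and 1.20, 0.988, 0.556 and 0.783 in Control. KO replicates 1 to 3 lay below every Control library and KO replicate 4 above every one, which is the arrangement seen for Ramp1. The log2 fold change was 0.08 (SE 0.74) over all libraries and -1.26 without KO replicate 4. Deviations of Ramp1 and Adm had an r of 0.899 and a rho of 0.619 over 8 libraries (exact within-group permutation p = 0.0625 and 0.177, adjusted p = 0.565 and 0.761 over 21 pairs), and r was 0.638 without KO replicate 4. Calca, Calcb and Adm are on the chromosome of Cic, 89.3, 89.4 and 85.3 Mb from it.

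To compare levels between genes, CPM was divided by the length of each gene's exons joined over all GENCODE M21 transcripts. In Control, Ramp3 came first at 18.1 ± 6.56 CPM per kb. Ramp1 (7.73 ± 0.535) and Calca (7.28 ± 1.69) followed with overlapping ranges, and Ramp3 did not overlap either. Next were Calcr (3.55 ± 1.21) and Ramp2 (2.80 ± 0.489), which overlapped each other, and then Calcrl (0.878 ± 0.233), Adm (0.544 ± 0.170) and Calcb (0.285 ± 0.169), where Calcrl overlapped Adm and Adm overlapped Calcb. In KO, the order of means was Ramp3 (8.36 ± 3.43), Calca (7.74 ± 2.12), Ramp1 (5.85 ± 3.05) and Calcr (5.81 ± 0.609), all overlapping, then Ramp2 (1.79 ± 0.448) and Calcrl (1.36 ± 0.156), which also overlapped. With the median length of coding transcripts in place of joined exons, Ramp1 came first in Control at 27.4 CPM per kb, then Calca at 20.8 and Ramp3 at 20.2. The order of Calcr and Ramp2 also turned: on that length Ramp2 lay above Calcr, without overlap in Control (11.5 to 16.3 against 2.67 to 5.79 CPM per kb) and with overlap in KO (6.52 to 11.5 against 5.85 to 7.14 CPM per kb). The order of Ramp1, Ramp3 and Calca, and that of Calcr and Ramp2, thus depends on the length used.

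Per kilobase of exon, the 3 RAMP genes together had 14.0, 10.4, 16.6 and 23.0 CPM per kb in KO and 35.0, 21.1, 23.6 and 34.7 CPM per kb in Control. The 2 receptor genes together had 6.70, 6.44, 7.79 and 7.74 CPM per kb in KO and 3.75, 4.52, 6.40 and 3.05 CPM per kb in Control. RAMP sums overlapped through KO replicate 4, whereas receptor sums met without overlapping, at 6.40 in Control replicate 3 and 6.44 in KO replicate 2. The ratio of RAMP to receptor level was 2.09, 1.62, 2.14 and 2.97 in KO and 9.32, 4.67, 3.69 and 11.4 in Control, so that each KO library was below each Control library (means 2.20 ± 0.561 and 7.26 ± 3.68, n = 4 each). With median coding transcript lengths the ratio was 3.99 to 6.93 in KO and 7.73 to 21.2 in Control, again with no overlap. This ratio was formed after the values were seen and joins genes of the same contrast, so it has no test. The mix of RAMPs overlapped between the groups: Ramp3 made up 34.7% to 67.9% of the RAMP level in KO and 54.8% to 69.7% in Control, Ramp1 20.1% to 50.4% and 21.2% to 34.3%, and Ramp2 9.32% to 14.9% and 9.06% to 10.9%. With median coding transcript lengths Ramp1 had the highest mean share in place of Ramp3, at 34.4% to 61.2% in KO and 37.9% to 51.2% in Control. On that length Ramp3 made up 13.3% to 36.6% and 25.8% to 39.3%, and Ramp2 19.3% to 29.0% and 22.4% to 23.0%, again with overlap.

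**Figure D4:**
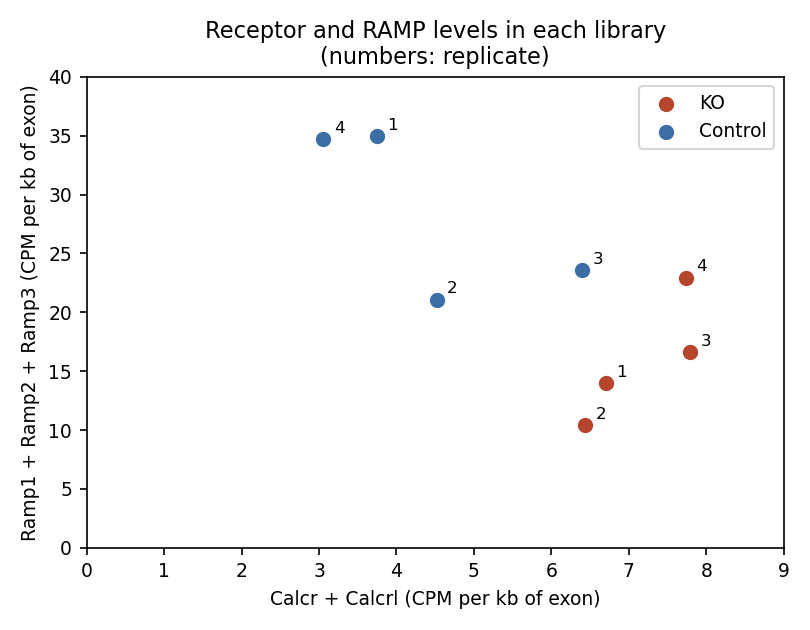
Summed level of Ramp1, Ramp2 and Ramp3 against summed level of Calcr and Calcrl, both in CPM per kb of exon, one point a library, numbered by replicate. KO libraries lie to the lower right, at RAMP to receptor ratios of 1.62 to 2.97, and Control libraries to the upper left, at 3.69 to 11.4, with Control replicates 1 and 4 farthest from the KO libraries.

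Other genes of the pathway were tested in the same fit. Of 68 with a row, 60 were tested and none was called in either direction with edgeR, against 0.259% of all genes. At an unadjusted p of 0.05, 10 of the 60 passed, against 10.6% of all genes. DESeq2 called 0 of them too. There were 31 positive and 29 negative fold changes, with a median of 0.01 beside 0.02 for all genes.

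Among other ligands and accessory proteins, 5 of the 10 tested were positive and 5 negative (median 0.02). Iapp, which encodes amylin, had 0 counts in all 8 libraries, which allows up to 0.0513 to 0.0924 CPM a library. Adm2, the intermedin gene, reached at most 0.138 CPM. Crcp, whose product couples the CGRP receptor to signalling, had 48.0 ± 5.20 CPM in KO and 46.6 ± 0.755 CPM in Control (n = 4 each, log2 fold change 0.04, edgeR adjusted p = 0.940). The smallest p-values were those of 3 peptidases: Ide, the insulin- and amylin-degrading enzyme, was at 0.42 (edgeR adjusted p = 0.307), Mme, neprilysin, at -0.38 (adjusted p = 0.342), and Ece1, which degrades CGRP in endosomes, at 0.31 (adjusted p = 0.380). None of the 3 passed.

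In the G protein and cyclic AMP list, 17 of 33 tested genes were positive and 16 negative (median 0.02). The adenylyl cyclase gene Adcy1 had 109 ± 21.4 CPM in KO and 150 ± 16.0 CPM in Control (n = 4 each, log2 fold change -0.46, edgeR adjusted p = 0.208). Every KO library was below every Control library for Adcy1 and for a second cyclase gene, Adcy9 (-0.34, edgeR adjusted p = 0.290), as for 2.91% of all genes. Gnao1, which encodes the Go alpha subunit, lay the other way, at 1298 ± 175 and 1057 ± 53.9 CPM (n = 4 each, 0.30, edgeR adjusted p = 0.367). Its KO libraries all lay above its Control libraries, as for 3.01% of all genes. Of 8 genes of receptor desensitisation, 5 were positive and 3 negative (median 0.02), and the receptor kinase genes Grk5 (-0.36, edgeR adjusted p = 0.385) and Adrbk2 (-0.29, adjusted p = 0.517) and the regulator Rgs2 (0.21, adjusted p = 0.567) had the smallest p-values.

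The other class B1 receptors, the structural relatives of Calcr and Calcrl, were mixed in direction. Of 13, 9 were tested, with 4 positive and 5 negative fold changes and a median of -0.27, and 0 were called (edgeR, 2 at an unadjusted p of 0.05). Vipr2, the VIP and PACAP receptor VPAC2, ranged over 8.66 to 12.8 CPM in KO libraries and 10.1 to 21.6 CPM in Control libraries, which overlap (log2 fold change -0.73; edgeR, adjusted p = 0.189). Crhr1, the CRH receptor gene, had 5.69 ± 0.946 and 8.31 ± 0.710 CPM with no overlap (-0.55, edgeR adjusted p = 0.328), and Glp1r, the GLP-1 receptor gene, 12.6 ± 1.70 and 9.82 ± 2.12 CPM (0.37, edgeR adjusted p = 0.518). Of all genes, 2.91% were lower in KO with no overlap, and 10.6% passed an unadjusted p of 0.05 (edgeR).

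**Figure D5:**
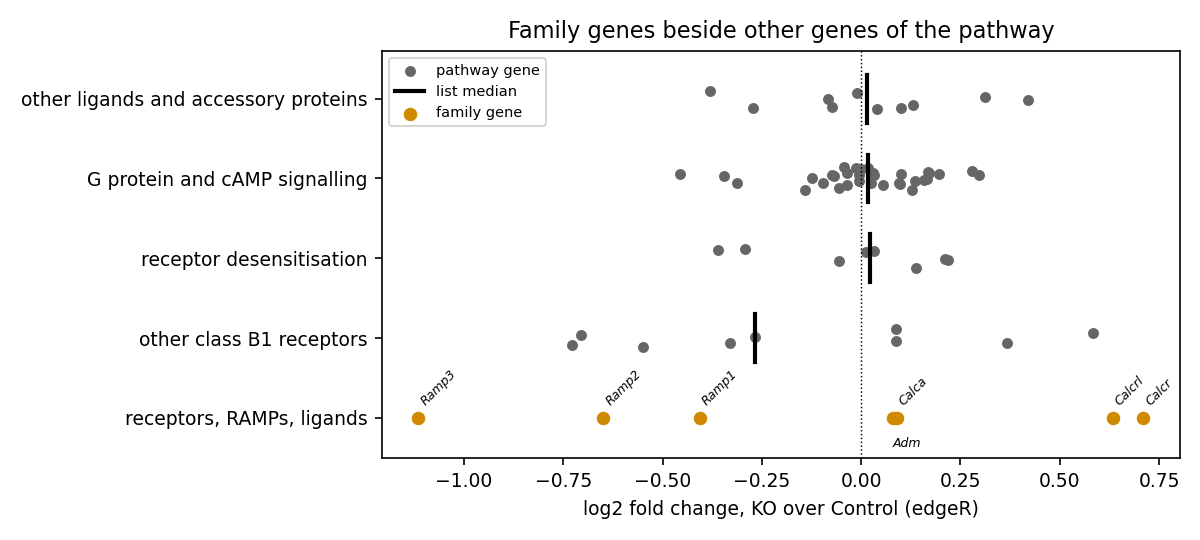
Log2 fold change, KO over Control, of each tested pathway gene by list (grey points, heights jittered, list median as a black bar) and of the 7 fitted family genes (orange). The medians of 3 lists lie at 0.02 and that of the other class B1 receptors at -0.27, while the family genes spread from -1.11 for Ramp3 to 0.71 for Calcr.

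Genes that lie within 1 Mb of a family gene had median log2 fold changes of -0.05 to 0.04 around the 8. The called neighbours below stand beside 0.259% called among all genes tested (edgeR). Around Calcr, 8 neighbours were tested, 4 positive and 4 negative, and none was called with edgeR, the smallest p being that of Gng11 (-0.60, edgeR adjusted p = 0.119). Around Ramp2, 1 of 67 was called, the ETS factor gene Etv4 (2.24, edgeR adjusted p = 0.00169), a known Capicua target that went the other way from Ramp2. Adcy1 is 1 of the 24 neighbours of Ramp3, none of which was called, and Rnf141 (-0.72, edgeR adjusted p = 0.0476) is the 1 of 20 called around Adm. Of the 13 tested around Ramp1, the clock gene Per2 had the smallest p (0.69, edgeR adjusted p = 0.0875).

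Across libraries, the genes most like each family gene were ranked by the Pearson r of log2 CPM deviations from group means over the 8 libraries, among 12878 other genes. For Calcr these were Avpr1a, the V1a vasopressin receptor gene (r = 0.975), Zfp182 (0.965) and Ccdc22 (0.961), and for Calcrl they were Sart3 (0.966), Nbeal2 (0.950) and Lonrf3 (0.950). Avpr1a had 8.33 CPM in KO and 5.94 CPM in Control (group means). Ramp1 was closest to Tmem198 (r = 0.996), Selm (0.991) and Romo1 (0.990), Ramp2 to the collagen gene Col1a1 (0.986), the homeobox gene Six3 (0.984) and D16Ertd472e (0.984), and Ramp3 to Mrpl15 (0.984), Mesdc1 (0.974) and Ubald1 (0.974). Calca was closest to Sec24d, the peptide gene Npvf and the GABA transporter gene Slc6a11 (0.979, 0.979 and 0.970). These values describe 8 libraries that share depth and scaling within each library. They are high in part because the 3 highest of 12878 were taken. For Ramp1, the largest deviation was that of KO replicate 4 (0.94), the library that lay apart on the first principal component.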

How the data were processed

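Ribosome-bound RNA of 8 libraries was amplified from 10 ng and sequenced, per the labels' protocols. The authors deposited raw counts of reads for each gene symbol. The submitters' processing notes name TopHat2 2.0.9, HTSeq, DESeq2 and mm10. For the annotation, strand setting and filters the labels used here name nothing. Rows for 92 ERCC spike-ins and 5 counter totals stayed out of library sizes and tests. Without molecular identifiers, reads of an amplified molecule count more than 1 time.

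A robust quasi-likelihood test in edgeR 4.0.16 (R 4.3.3) was fitted to all 8 libraries without covariates. Scaling was by TMM, after filterByExpr with a minimum of 10 counts and a total of 15. Adjusted p-values are Benjamini-Hochberg over all genes, with a threshold of 0.05. The model was tested on simulated counts. SE is that of the difference of group means of log2 CPM. Groups come from the sample titles. Positions and exon lengths are from GENCODE M21 (GRCm38, the build of mm10). Pair correlations used all 576 within-group rearrangements.

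The family genes and lists were chosen with earlier results of these data known. Named were the 8 family genes, Cic, called pathway genes, the 3 of smallest p in each pathway list, Iapp, Adm2 and Crcp, called markers, Cldn5, Pecam1, Otp and Sim1, and the 3 most alike genes with a mean of at least 1 CPM; neighbours of smallest p and the RAMP to receptor ratio were chosen after their values were seen. Alternatives were other scalings, no filter, DESeq2 1.42.0, a replicate block, no Rn45s and leaving out each library.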

Additional observations from a re-analysis of the deposited data

Results flagged for a closer look

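In 76 groups of 4 values, 6 had a sample far from the other 3 by Dixon's criterion (the gap to the nearest value over the whole range), which chance gives in about 1 of 20 groups. Adm in KO replicate 4 was 2.68 CPM against 0.272 to 0.505 CPM in the other KO libraries. Cic in Control replicate 2 was 72.4 CPM against 101 to 103 CPM. Ece1 in KO replicate 2 was 91.8 CPM against 73.3 to 75.7 CPM, and Crcp in Control replicate 3 was 47.7 CPM against 46.2 to 46.4 CPM. In Control replicate 4, neuron markers summed to 12950 CPM against 10780 to 11030 CPM in the other Control libraries, and choroid plexus markers to 543 CPM against 14.2 to 75.9 CPM.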

How the results depend on the processing

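Receptor genes kept a positive and RAMP genes a negative fold change in all 16 alternatives, with Calcr at 0.40 to 0.95, Calcrl at 0.37 to 0.81, Ramp1 at -0.83 to -0.22, Ramp2 at -0.80 to -0.41 and Ramp3 at -1.30 to -0.57; the outermost values came from leaving out libraries. No alternative called a pathway gene. Family genes called were 1 with DESeq2 (Calcr), 1 with the replicate block (Ramp3), and 0 to 1 when 1 library was left out (Ramp1 without KO replicate 4, Calcr without Control replicate 3). Over all genes, 40 were called, 30 higher and 10 lower. The count was 26 (5 lower) with total counts only, 200 (119 higher, 81 lower) with DESeq2 and 65 (22 lower) with the replicate block. Without 1 library it was 14 to 53, with 12 to 36 higher and 2 to 17 lower; leaving out KO replicate 2 gave 26, and leaving out Control replicates 1, 2, 3 or 4, one at a time, gave 19, 17, 26 and 14. With Control replicates 1 and 4 left out together, an alternative added after seeing the data, it was 4 (4 higher, 0 lower; 0 family genes). The causes of these changes were not tested, and the fits that left libraries out also had fewer of them. No label says that a number pairs mice, and deviations of same-numbered libraries correlated at -0.048 to 0.103, with only number 4 best matched to itself. Calcb and Adm are limited by counts, at 0 to 33 and 11 to 87 reads a library.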
